A study of Mus musculus with 3 samples.

Results

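Mt1, Mt2, Slc30a1 and Slc39a14 are the 4 genes described here, out of 32288 features counted in cells of the mouse patellar tendon. They were taken by their symbols from the matrices of all 3 libraries, and all 4 were present in each. The 20-week group held 2 libraries, called 20-week replicate 1 and replicate 2, and the 2-week group held 1 library. All were from mice labelled WT, with no transgene, agent or deletion named in the labels, and the labels do not give the number of animals behind a library. Tendons were digested with type I collagenase, cells were sorted to leave out hematopoietic and endothelial cells, and messenger RNA was counted with a 10x 3′ droplet kit that tags each captured molecule with a unique molecular identifier (UMI). The 4 genes were chosen by their measured levels across cell classes and ages in these same libraries, so their own values are given as a description, with no test.

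Metallothioneins are small cysteine-rich proteins that bind zinc and copper, buffer free zinc in the cytosol and take up toxic metals and oxidants. Mt1 and Mt2 are made in most tissues and are induced by zinc through the metal-response factor Mtf1, and also by glucocorticoids and by cytokine signalling of the interleukin-6 type. Slc30a1 is the plasma membrane exporter that moves zinc out of the cell and is itself a target of Mtf1. Slc39a14 is an importer of the SLC39 family that carries zinc, manganese and iron bound to no transferrin into the cell, and interleukin-6 induces it in liver.

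The metallothionein genes lie together on mouse chromosome 8 (GRCm38), all on the plus strand, in the order Mt4, Mt3, Mt2 and Mt1, within 43131 bases. Mt2 (ENSMUSG00000031762) spans chr8:94172664-94173568 and Mt1 (ENSMUSG00000031765) spans chr8:94179082-94180327, with 5513 bases between them. Slc30a1 (ENSMUSG00000037434) lies at chr1:191906767-191913247 on the plus strand and Slc39a14 (ENSMUSG00000022094) at chr14:70303469-70351425 on the minus strand. All 4 are protein-coding in GENCODE's mouse annotation. The longest run of bases that the longest Mt1 and Mt2 transcripts share was 20, so a read holds bases of its own gene unless it lies within such a run. The promoters of 3 of the 4 genes were found in RefSeq's table (GRCm38.p6) and are printed because Mtf1 acts through short metal-response elements in such windows. Each line runs 5′ to 3′ on the plus strand and covers 250 bases before RefSeq's start and the first 30 bases after it. Capitals mark matches to the core of the metal-response element, searched as TGCACNC and TGCGCNC on both strands. The window of Mt1 is chr8:94178839-94179118, that of Mt2 is chr8:94172368-94172647 and that of Slc30a1 is chr1:191906531-191906810.
Mt1: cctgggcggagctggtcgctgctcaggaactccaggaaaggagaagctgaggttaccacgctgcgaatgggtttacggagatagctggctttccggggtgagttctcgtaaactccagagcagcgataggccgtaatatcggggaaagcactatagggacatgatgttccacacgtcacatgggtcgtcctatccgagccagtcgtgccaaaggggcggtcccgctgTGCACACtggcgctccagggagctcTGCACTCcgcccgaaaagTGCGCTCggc
Mt2: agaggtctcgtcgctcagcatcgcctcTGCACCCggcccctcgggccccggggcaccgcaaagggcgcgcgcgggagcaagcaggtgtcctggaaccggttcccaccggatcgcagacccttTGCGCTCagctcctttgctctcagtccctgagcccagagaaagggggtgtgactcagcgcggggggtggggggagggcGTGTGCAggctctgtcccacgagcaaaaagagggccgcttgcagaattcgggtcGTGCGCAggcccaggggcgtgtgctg
Slc30a1: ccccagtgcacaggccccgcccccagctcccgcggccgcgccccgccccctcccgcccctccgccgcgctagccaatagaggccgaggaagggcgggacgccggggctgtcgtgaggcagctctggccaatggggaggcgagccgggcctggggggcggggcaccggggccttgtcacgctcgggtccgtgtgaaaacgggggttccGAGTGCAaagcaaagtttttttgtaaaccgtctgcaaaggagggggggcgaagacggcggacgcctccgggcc

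In windows of 300 bases, from 250 before to 50 after the start, Mt2 held 4 such matches, Mt1 held 3 and Slc30a1 held 2, one of them between bases 31 and 37 after the start and so beyond the printed stretch. Of all 32851 promoters in the table, 25.7% held at least 1 match, 7.11% at least 2, 1.97% at least 3 and 0.517% at least 4. The promoters of Mt3 and Mt4 held 1 match each. A core of the antioxidant response element, searched as TGACNNNGC on both strands and found in 12.4% of all promoters, occurred 1 time in Mt2 and 1 time in Slc30a1 and in neither case overlapped a metal-response match. It was not found in the Mt1 window. The windows depend on the annotated start: for Mt1 RefSeq's is base 94179089, while GENCODE lists 3 transcripts with starts between 94179082 and 94179241. For Mt2 RefSeq's start is base 94172618, while both GENCODE transcripts start downstream of it, at 94172664 and 94172860. A window of the same length from either would leave out the match farthest upstream. Of these matches, a window from 94172860 would keep only the one downstream of RefSeq's start. For Slc30a1 RefSeq's start is base 191906781 and the 2 GENCODE transcripts start at 191906767 and 191907256. Bases beyond the printed starts' windows were not searched.

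Once low-quality barcodes and called doublets had been set aside, 606, 1007 and 4767 cells were used in 20-week replicate 1, 20-week replicate 2 and the 2-week library, with 1784768, 5427771 and 32457627 UMIs. The median was 2822, 5120 and 6441 UMIs per cell in that order. The libraries shared at most 3 cell barcodes in any pair. Clusters were made without the 4 genes and without every other listed gene, and were named from marker genes. The tenocyte-like class held 242, 115 and 647 cells, the progenitor-like class 163, 490 and 866, and the mural-like class, pericytes and smooth muscle, 43, 40 and 662. All 8 tenocyte markers and all 8 progenitor markers were detected in their class in every library, as were all 9 mural markers. The classes were named from these markers, so their detection is no test of identity. All 8 progenitor markers were also detected in the tenocyte-like cells of every library. Most cells of a class came from different clusters at the 2 ages. Tenocyte-like cells of 20-week replicate 1 were mainly cluster 8, led by Spp1, Npy and Chad, those of replicate 2 were mainly cluster 7, led by Tnmd, and those of the 2-week library were mainly cluster 6, led by Angptl7, with cluster 7. Progenitor-like cells were mainly cluster 3 in both 20-week libraries and clusters 2 and 11 in the 2-week library. In 20-week replicate 2, 84 cells were muscle fibre-like, against 13 in the 2-week library and 0 in 20-week replicate 1. Cluster 16 was unnamed, and its leading genes, averaged over its libraries, were those of cycling cells. Its 66 cells of replicate 2 carried B-lineage markers, which summed to 7538 CPM there against 0 CPM in its 64 cells of the 2-week library. With a finer clustering at resolution 1.0, a B lineage-like cluster held 45 cells, all of replicate 2, and the cycling cluster held 22 cells of replicate 2. Levels over all cells thus average over different mixtures.

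Mt1, the most abundant of the 4 transcripts, was higher in both 20-week libraries than in the 2-week library whether all cells, the tenocyte-like class or the progenitor-like class were summed. Over all cells it had 4656 and 3979.7 CPM (UMIs per 1e6 UMIs of the summed library or class) in 20-week replicates 1 and 2, against 840.3 CPM in the 2-week library. The 20-week libraries were both above the 2-week one. In tenocyte-like cells Mt1 had 3753 and 2177 CPM in the 20-week libraries, from 2728 and 945 UMIs, against 166 CPM in the 2-week library, from 931 UMIs. This was the widest gap between ages of the 3 classes, with a fitted log2 ratio of 4.02 (SE 1.15, 2 against 1 libraries). Markers of other cell types also differed in this class. The 8 osteogenic markers summed to 879 and 69.1 CPM in the 20-week libraries, with 4 and 6 of them at 0, against 5.87 CPM in the 2-week library, with 4 at 0, which is the order of the libraries in Mt1 and Mt2. The 8 progenitor markers summed to 719.6 and 836 CPM in the tenocyte-like cells of the 20-week libraries, against 285 CPM in the 2-week library, with none at 0. Other lists went the other way in this class. The 8 chondrocyte markers summed to 282 and 64.5 CPM in the 20-week libraries, against 519 CPM in the 2-week library. The 9 mural markers summed to 182 and 150 CPM in the 20-week libraries, against 650 CPM in the 2-week library. The 7 myogenic markers, at 12.4 and 221 CPM against 176 CPM, lay on both sides. The part of these lists in the levels of Mt1 and Mt2 was not tested. In progenitor-like cells Mt1 had 4055 and 5248 CPM in the 20-week libraries, against 879.6 CPM in the 2-week library, a log2 ratio of 2.44 (SE 0.81). With the finer clustering at resolution 1.0, which left 128, 214 and 785 cells in the class, that ratio was 1.56. An unnamed cluster led by Hmcn2, Fmo2 and Ces1d also appeared at that resolution. Its cells numbered 24 in 20-week replicate 1, 272 in replicate 2 and 4 in the 2-week library. At resolution 0.5 the 8 progenitor markers summed in the class to 8764 and 5791 CPM at 20 weeks, against 9539 CPM at 2 weeks. Whether the progenitor-like ratios, of this gene and of those below, compare the same kind of cell at both ages was not tested. Over all cells the log2 ratio was 2.42 (SE 0.91).

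Mt2, the partner gene upstream of Mt1, differed between the ages by more than Mt1 did in the fitted ratios of all 4 populations, though by less than the SE of either in each. It had 1731 and 1319.5 CPM over all cells in the 20-week libraries, against 194 CPM in the 2-week library, with a log2 ratio of 3.05 (SE 0.83). In tenocyte-like cells it had 1860.1 and 1002 CPM in the 20-week libraries, against 47.0 CPM in the 2-week library, with a log2 ratio of 4.79 (SE 1.16). Replicate 1 alone gave 5.28 and replicate 2 alone gave 4.04 over the 2-week library. In progenitor-like cells it had 1695 and 1707 CPM in the 20-week libraries, against 274 CPM in the 2-week library, with a log2 ratio of 2.68 (SE 0.76). In this class the 20-week libraries lay close together and far from the 2-week library. With resolution 1.0 the progenitor ratio was 2.13.

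**Figure D1:**
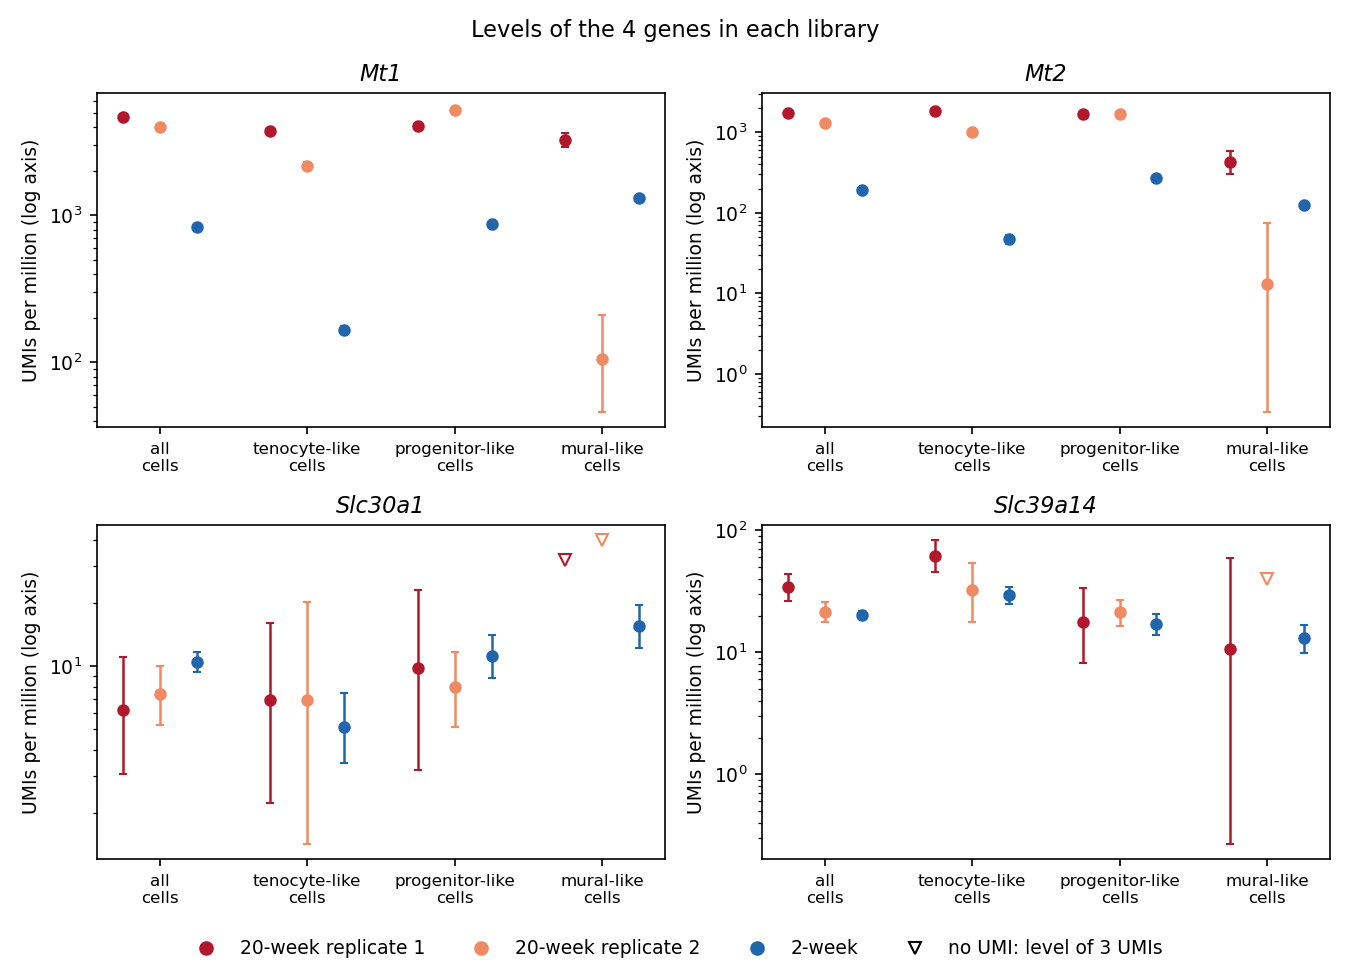
CPM of each gene (log axis, 1 panel per gene, each with its own scale) in all cells and in 3 cell classes, for both 20-week libraries and the 2-week library; bars are exact 95% Poisson intervals, which cover counting error only, and open triangles mark libraries with no UMI at the level of 3 UMIs. For Mt1 and Mt2 both 20-week points lie above the 2-week point in all but the mural-like cells, where 20-week replicate 2 lies below it.

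The mural-like cells went different ways in the 20-week libraries. Mt1 had 3265 CPM in 20-week replicate 1, from 307 UMIs of which 2 cells held 49.8%, and 106 CPM in replicate 2, from 8 UMIs, against 1309 CPM in the 2-week library. The 2-week value thus lay between the 20-week values. Mt2 had 425 and 13.3 CPM in the 20-week libraries, the second from 1 UMI, against 125 CPM in the 2-week library. The log2 ratio of Mt1 to the 2-week library was 1.36 for replicate 1 and -4.01 for replicate 2, and for Mt2 it was 1.82 and -3.13. Within cluster 9, the mural-like cluster led by Rgs5, Kcnj8 and Abcc9, which held cells of every library, Mt1 had 1334 and 96.3 CPM in the 20-week libraries against 1009.95 CPM in the 2-week library. The 7 endothelial markers summed to 888 CPM in the mural-like cells of replicate 2, all 7 detected, against 0 CPM in replicate 1 and 5.41 CPM in the 2-week library. The 6 adipocyte markers summed to 1266 and 5183 CPM in the mural-like cells of the 20-week libraries, with 5 and 3 of them at 0, against 281 CPM in the 2-week library, with 2 at 0. The 9 mural markers themselves summed to 46409 and 19606.5 CPM in the 20-week libraries, against 60763 CPM in the 2-week library. The part of these lists in the result was not tested. These cells had 1767.5 UMIs per cell at the median in replicate 2, 2036 in replicate 1 and 7002.5 in the 2-week library.

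Clusters 1 and 10, like cluster 9, held at least 20 cells of every library and give the ages within 1 cluster. In cluster 1, unnamed and led by Igfbp3 and Sfrp2, Mt1 had 1604 and 2206 CPM in the 20-week libraries, against 1019 CPM in the 2-week library. In replicate 2, 1 cell held 285 of the 653 Mt1 UMIs of this cluster, and without that cell its level was 1269 CPM. In cluster 10, unnamed and led by Mmp3, Cxcl14 and Lpl, Mt1 had 9747 and 4184 CPM in the 20-week libraries, against 2171 CPM in the 2-week library. Here 1 cell of replicate 2 held 294 of the 1048 Mt1 UMIs, and without that cell the level was 3122 CPM. Mt2 in cluster 1 had 675 and 882 CPM in the 20-week libraries, against 255 CPM in the 2-week library, and in cluster 10 it had 2412 and 799 CPM, against 423 CPM. Both clusters thus had the 2-week library lowest for both genes. In cluster 7, the Tnmd-led tenocyte-like cells, Mt1 had 1435 CPM in 20-week replicate 2, from 75 cells, against 186 CPM in the 2-week library, from 208 cells, while replicate 1 held only 6 such cells. Mt2 in the same cluster had 501 CPM in 20-week replicate 2, against 32.8 CPM in the 2-week library. Cluster 8, the Spp1- and Npy-led tenocyte-like cells, had nearly the same levels in both 20-week libraries, with 3743 and 3807 CPM of Mt1 and 1865 and 1899.55 CPM of Mt2, and held 13 cells in the 2-week library.

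The order of cell types by Mt1 differed between libraries. The classes and clusters ranked also differed, because each needed 20 cells in a library. There were 15 in the 2-week library, 5 in 20-week replicate 1 and 9 in replicate 2. In the 2-week library, over 15 classes and clusters, Schwann-like cells had the highest level, at 2356 CPM from 31 cells, and their interval overlapped that of cluster 10. After cluster 18, mural-like cells followed at 1309 CPM, the chondrocyte-like cells had 993 CPM and the progenitor-like cells 879.6 CPM. Tenocyte-like cells, at 166 CPM, were next to last, above cluster 14, led by Spp1, Ibsp and Bglap, at 80.0 CPM (95% Poisson interval 62.9 to 100.3). The low end of the 2-week order was thus taken by the tenocyte-like class and cluster 14. In 20-week replicate 1, cluster 10 came first, and the progenitor-like, tenocyte-like and mural-like classes followed with intervals that overlapped between neighbours. In 20-week replicate 2, the myogenic-like cells came first at 7378 CPM of Mt1 from 32 cells, against 382 CPM in the myogenic-like cells of the 2-week library. The muscle fibre-like cells of replicate 2 had 229.6 CPM and the cycling cluster with B-lineage genes 26.2 CPM, so low levels of Mt1 also occurred at 20 weeks.

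**Figure D2:**
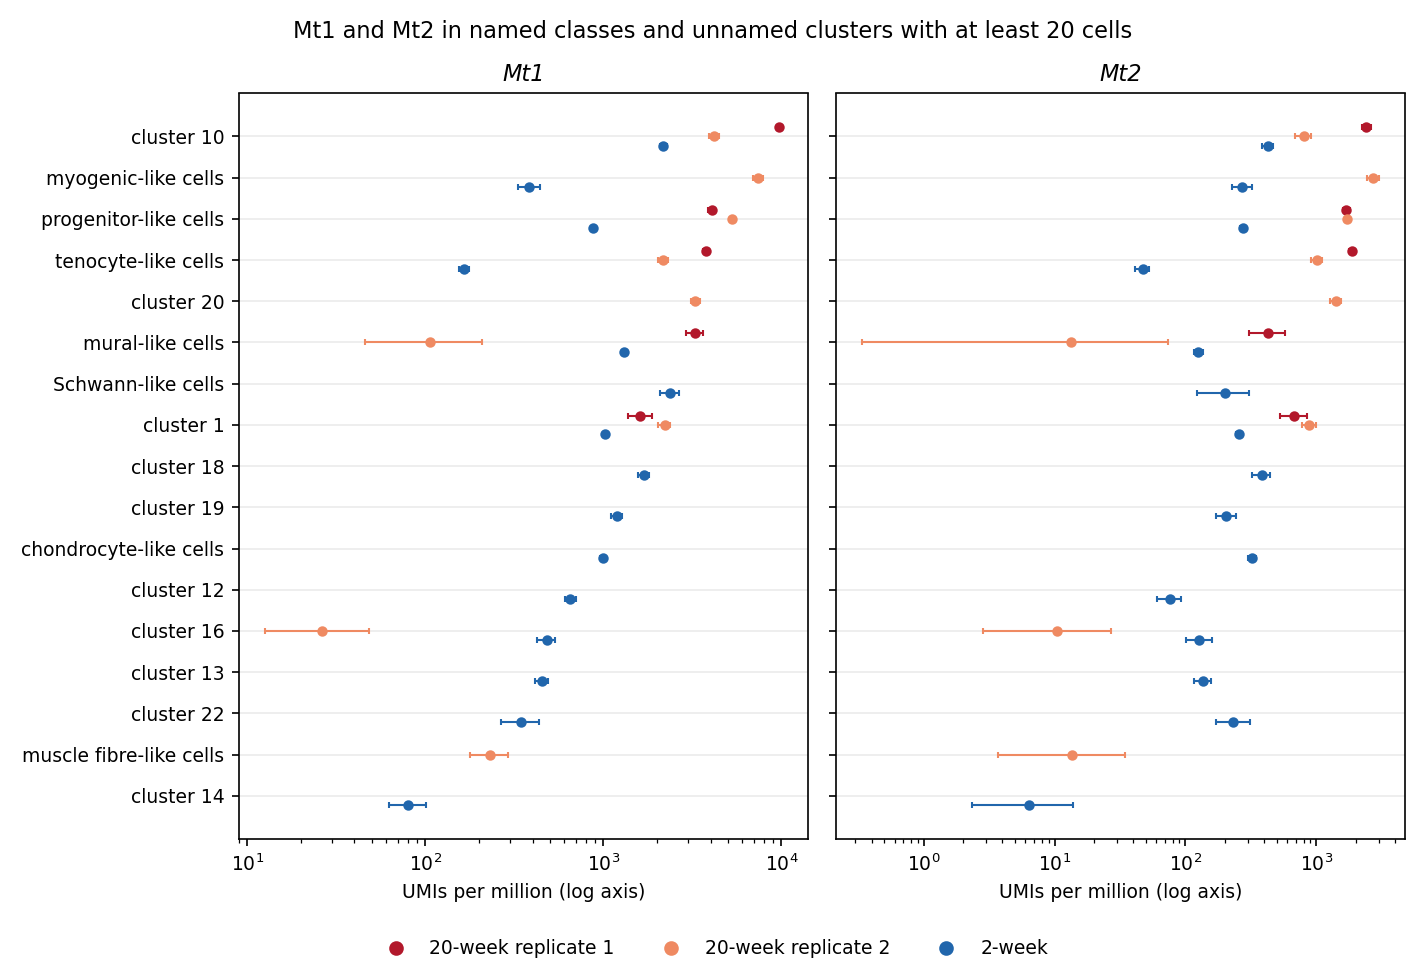
CPM of Mt1 and Mt2 (log axes) in every named class and unnamed cluster with at least 20 cells in a library, ordered by the highest Mt1 level, with exact 95% Poisson intervals. The 2-week tenocyte-like cells sit at 166 CPM of Mt1 and 47.0 CPM of Mt2, and the 20-week points of that class lie above 1000 CPM for Mt1.

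The shares of cells with a UMI were compared at 1000 UMIs per cell, to which every cell was thinned with none left out. Mt1 was then found in 82.6% and 53.0% of tenocyte-like cells of the 20-week libraries, against 10.7% in the 2-week library. Before thinning these shares were 94.6%, 71.3% and 24.7%, at medians of 2960, 3452 and 7782 UMIs per cell. The share was thus lowest in the deepest library. In the cycling cluster with B-lineage genes of 20-week replicate 2 the thinned share was 1.52%, at a median of 4530 UMIs per cell, and in cluster 14 of the 2-week library it was 6.12% (exact 95% interval 2.84 to 11.3) at 6682. That interval overlaps the one for 2-week tenocyte-like cells, 8.39% to 13.3%, so a background of free RNA is not told apart from a low level there. In progenitor-like cells the thinned share with Mt1 was 75.5% and 66.9% in the 20-week libraries, against 42.5% in the 2-week library, and that with Mt2 was 54.0% and 43.5%, against 18.9%. The UMIs were unevenly spread among cells: the tenth of progenitor-like cells with the most Mt1 held 59.0% and 51.9% of its thinned UMIs in the 20-week libraries and 54.1% in the 2-week library.

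Mt2 had fewer UMIs than Mt1 in every class and cluster with a ratio, and the ratio ranged widely. In tenocyte-like cells there were 0.496 and 0.460 Mt2 UMIs per Mt1 UMI in the 20-week libraries, against 0.284 in the 2-week library, with 95% counting intervals of 0.464 to 0.529, 0.410 to 0.516 and 0.246 to 0.325. In cluster 7 the ratio was 0.349 in 20-week replicate 2, against 0.176 in the 2-week library. In progenitor-like cells it was 0.418 and 0.325 in the 20-week libraries, against 0.311 in the 2-week library, and the interval of replicate 2 (0.315 to 0.335) overlapped that of the 2-week library (0.295 to 0.328). The interval of replicate 1 (0.386 to 0.453) overlapped neither of these, so libraries of the same age also differed by more than counting error, and with 1 library at 2 weeks the difference between ages was not tested. Mural-like cells had 0.130 in 20-week replicate 1 and 0.0957 in the 2-week library. Ratios lower still came from few Mt2 UMIs, with 0.0588 in the muscle fibre-like cells of 20-week replicate 2, from 4 UMIs, 0.08 in cluster 14 of the 2-week library, from 6, and 0.0847 in the Schwann-like cells of the 2-week library, from 21. Myogenic-like cells had 0.368 in 20-week replicate 2, against 0.712 in the 2-week library, the reverse of the order in tenocyte-like cells. No normalization enters this ratio, and its intervals cover counting error only.

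**Figure D3:**
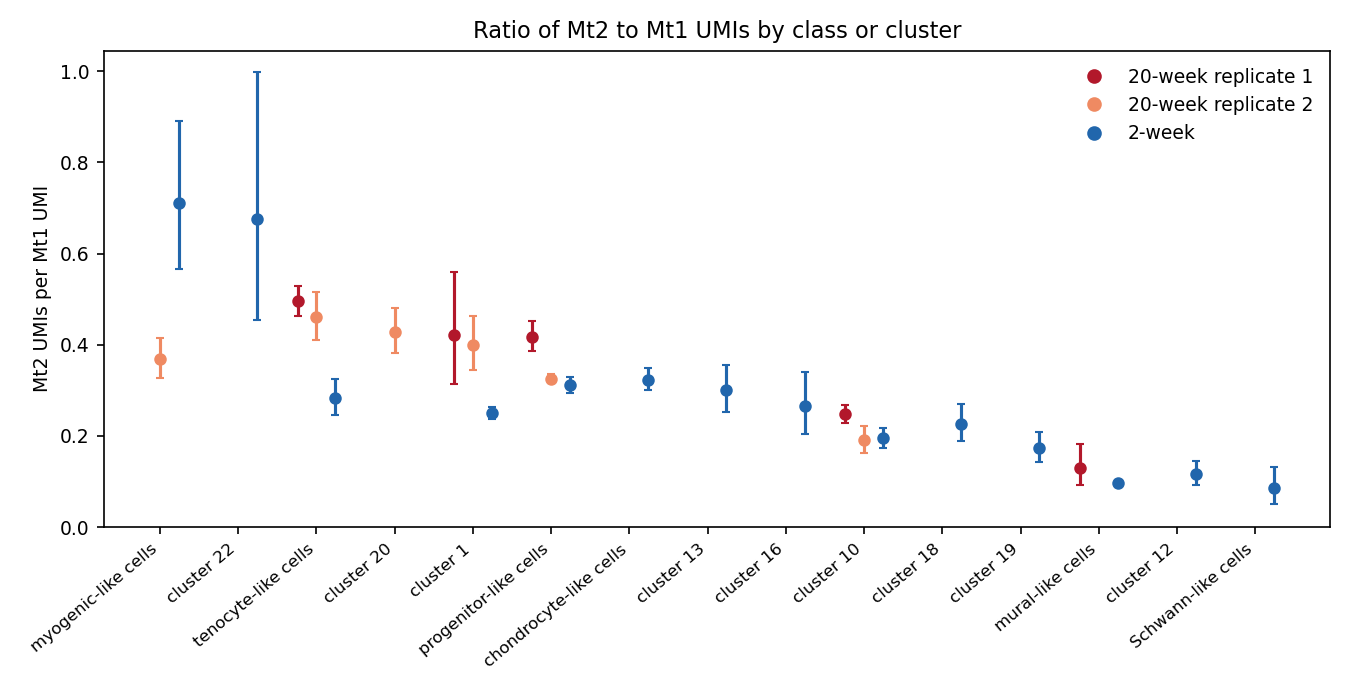
Mt2 UMIs per Mt1 UMI in classes and clusters where each library with a ratio had at least 20 Mt2 UMIs, with exact 95% binomial intervals. The tenocyte-like cells of the 20-week libraries stand at 0.496 and 0.460 and those of the 2-week library at 0.284, while mural-like cells lie at 0.130 and below.

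Slc30a1, the zinc exporter, was sparse and showed no gap between the ages like that of the metallothioneins. It had 6.16 and 7.37 CPM over all cells in the 20-week libraries, from 11 and 40 UMIs, against 10.5 CPM in the 2-week library, from 341 UMIs. The 20-week values were both below the 2-week value, with a log2 ratio of -0.62 (SE 0.56). In tenocyte-like cells it had 6.88 and 6.91 CPM in the 20-week libraries, from 5 and 3 UMIs, against 5.16 CPM in the 2-week library, and the gene did not pass the filter on low counts there. In progenitor-like cells it had 9.86 and 7.93 CPM in the 20-week libraries, against 11.2 CPM in the 2-week library, a log2 ratio of -0.38 (SE 0.70) that was 0.09 without replicate 2. The intervals of all 3 libraries overlapped in both classes. In mural-like cells no UMI was found in the 20-week libraries, which allows up to 31.9 and 39.8 CPM, above the 15.6 CPM of the 2-week library from 72 UMIs. A difference in that class was therefore not detectable at this depth. Among the 2-week classes and clusters the levels ran up to 47.5 CPM in Schwann-like cells, from 5 UMIs, and 29.97 CPM in myogenic-like cells, from 15 UMIs.

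Slc39a14, the importer, had 34.2 and 21.6 CPM over all cells in the 20-week libraries, from 61 and 117 UMIs, against 20.2 CPM in the 2-week library, from 657 UMIs. Replicate 2 and the 2-week library lay close together and replicate 1 stood above them. The log2 ratio was 0.51 (SE 0.53), and without replicate 1 it was -0.06. The ratios are scaled by TMM and the CPM are not, so a ratio near 0 can differ in sign from the CPM. In tenocyte-like cells it had 61.9 and 32.2 CPM in the 20-week libraries, against 29.4 CPM in the 2-week library, with a log2 ratio of 0.57 (SE 0.62) that was -0.19 without replicate 1. In progenitor-like cells it had 17.7 and 21.3 CPM in the 20-week libraries, against 17.0 CPM in the 2-week library, a log2 ratio of 0.24 (SE 0.56). The intervals of all 3 libraries overlapped in that class. In mural-like cells 1 UMI was found in 20-week replicate 1 and none in replicate 2, against 60 UMIs in the 2-week library. The 20-week level summed over both libraries was 0.454 times that of the 2-week library, with an exact 95% counting interval of 0.0113 to 2.63. Its highest 20-week level was 106 CPM in the myogenic-like cells of replicate 2, from 15 UMIs, against 19.98 CPM in those of the 2-week library, and its highest 2-week level was 39.8 CPM, in chondrocyte-like cells.

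The other 2 metallothionein genes were rare. Mt4, which is known from stratified epithelia, was found in 5 cells in all. In tenocyte-like cells its 44 UMIs of 20-week replicate 1 came from 1 cell and its 19 UMIs of replicate 2 from another, against 0 UMIs in the 2-week library. In progenitor-like cells it had 1 UMI in replicate 1 and 68 in replicate 2, all 68 from 1 cell, against 0 in the 2-week library. edgeR's quasi-likelihood test, the test used for all listed genes below, called the gene in both classes (adjusted p = 7.0e-13 for the tenocyte-like class, 4.57e-07 for the progenitor-like class), but 3 cells held all but 1 of these UMIs. With 3 counts in place of 0, the summed 20-week level was 101.6 times the 2-week level in tenocyte-like and 39.9 times in progenitor-like cells. These values take the UMIs of 1 cell per library as the level of the class, so no bound on an age difference follows. Mt3, known mainly from the brain, had 23 and 38 UMIs over all cells in the 20-week libraries, against 42 in the 2-week library, with a log2 ratio of 2.98 (SE 0.89, adjusted p = 0.421). It was found in 9, 8 and 16 cells of those libraries.

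The rest of the zinc system was read from lists of genes outside the 4. These lists and those of the paragraphs below were, like the 4 genes, chosen with earlier results of these data known. Their p-values and shares of called genes are therefore a description and no independent support. In tenocyte-like cells edgeR called 367 of 8071 genes at an adjusted p under 0.05 (4.55%), and in progenitor-like cells 459 of 11370 (4.04%). The called genes were higher at 20 weeks for 2.42% and lower for 2.13% of the genes tested in tenocyte-like cells, and for 2.41% and 1.63% in progenitor-like cells. Over all cells 11 of 13243 genes were called (0.0831%; 0.00755% higher and 0.0755% lower), and in mural-like cells 4 of 2293, all higher (0.174%). Of the listed genes outside the 4, edgeR called 3 of the 66 tested in tenocyte-like cells (4.55%) and 9 of 74 in progenitor-like cells (12.2%), all higher at 20 weeks and Mt4 among them in both, and none of 76 over all cells or of 36 in mural-like cells, where 9 and 1 were at an unadjusted p under 0.05 and DESeq2 called 2 and 0. Of the 9 other SLC30 exporters, 5 could be tested over all cells, 4 in tenocyte-like, 5 in progenitor-like and 0 in mural-like cells, and of the 13 other SLC39 importers 9, 8, 9 and 1 in the same order. Mtf1 could be tested over all cells and in progenitor-like cells only. None of the genes tested was called by edgeR or by DESeq2, and 1 was at an unadjusted p under 0.05 in edgeR, Slc30a5 in tenocyte-like cells. The tested exporters had a median log2 ratio of -0.40 in progenitor-like cells and of -0.65 in tenocyte-like cells, beside medians over all genes of 0.02 and 0.06. The tested importers had medians of -0.15 and -0.62 in those classes.

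The most abundant exporters all serve compartments inside the cell. Slc30a5 and Slc30a7, which load zinc into the secretory pathway, had log2 ratios of -1.78 (SE 0.63, adjusted p = 0.0901) and -1.11 (SE 0.68) in tenocyte-like cells, and -0.40 (SE 0.52) and -0.88 (SE 0.52) in progenitor-like cells. Slc30a9, a mitochondrial zinc transporter, had -0.18 (SE 0.60) in tenocyte-like and -0.38 (SE 0.50) in progenitor-like cells. Among the importers, Slc39a1, which works at the plasma membrane, had -0.42 (SE 0.63) in tenocyte-like and -0.07 (SE 0.51) in progenitor-like cells. Slc39a7 of the endoplasmic reticulum and Slc39a13, which is required for connective tissue development, had -0.85 (SE 0.65) and -0.82 (SE 0.67) in tenocyte-like cells. Mtf1 had 15.8 and 17.4 CPM in progenitor-like cells of the 20-week libraries, against 10.4 CPM in the 2-week library, a log2 ratio of 0.71 (SE 0.61, adjusted p = 0.876).

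Other metals gave a mixed picture. Of 16 iron-handling genes 15 could be tested in progenitor-like cells and 2 rose at 20 weeks. Hmox1, the heme oxygenase that releases iron from heme, had 25.7 and 85.7 normalized CPM in the 20-week libraries, against 9.60 in the 2-week library (log2 2.65, SE 0.55, adjusted p = 0.000123). Trf, transferrin, had 25.7 and 21.0 normalized CPM in the 20-week libraries, against 4.80 in the 2-week library (log2 2.23, SE 0.64, adjusted p = 0.0155). Both calls depended on the setting. The adjusted p of Hmox1 was 0.196 with DESeq2, 0.0737 with thinned sums and 0.284 with resolution 1.0, at log2 1.41. That of Trf was 0.806 with DESeq2, 0.751 with thinned sums, 0.058 without the filter and 0.0782 with resolution 1.0. In tenocyte-like cells none of the 13 iron genes tested was called by edgeR, with 2 at an unadjusted p under 0.05, and DESeq2 called 1. Of the 9 copper genes, which include Atox1 (a copper chaperone), Cox17 and Commd1, 8 could be tested over all cells, 6 in tenocyte-like, 8 in progenitor-like and 4 in mural-like cells. None of those tested was called by either tool, with 1 at an unadjusted p under 0.05 in edgeR, in tenocyte-like cells. Atox1 had log2 ratios of -0.17 (SE 0.80) in tenocyte-like and 0.06 (SE 0.61) in progenitor-like cells. Cox17, which serves the assembly of cytochrome c oxidase, had -0.28 (SE 0.67) in tenocyte-like cells and -0.02 (SE 0.51) in progenitor-like cells. Commd1, which takes part in copper export, had -1.25 (SE 0.65) in tenocyte-like cells and -0.92 (SE 0.53) in progenitor-like cells.

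**Figure D4:**
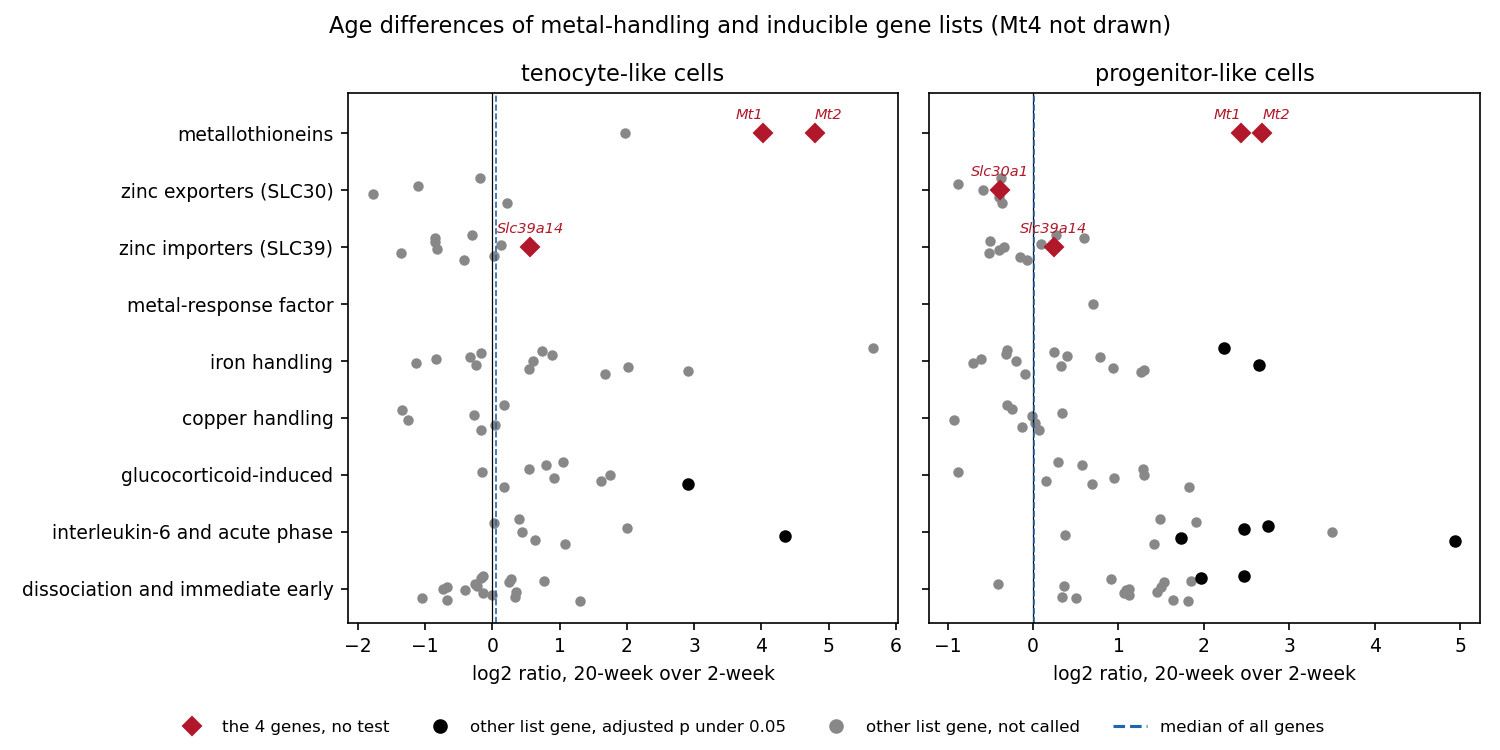
Log2 ratio of the 20-week over the 2-week libraries for every gene tested of 9 lists in tenocyte-like and progenitor-like cells; diamonds are the 4 genes (no test; Slc30a1 was not fitted in tenocyte-like cells), black points are other list genes with an edgeR adjusted p under 0.05, and the dashed line is the median of all genes. Mt1 and Mt2 lie at 4.02 and 4.79 in tenocyte-like and at 2.44 and 2.68 in progenitor-like cells, and the exporters lie mostly below 0.

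Signals known to induce metallothioneins were followed with 3 more lists, also chosen with earlier results of these data known. In progenitor-like cells all 9 tested genes of the interleukin-6 and acute phase list had positive ratios, with a median log2 ratio of 1.91, and 4 of them rose: Il6, its receptor Il6ra, and the receptors of related cytokines Osmr and Lifr. Il6 itself had 40.7 and 87.2 normalized CPM in the 20-week libraries, against 2.17 in the 2-week library (log2 4.93, SE 0.66, adjusted p = 2.35e-11), from 12, 64 and 13 cells with a UMI. Osmr had 34.3 and 76.2 normalized CPM in the 20-week libraries, against 8.67 in the 2-week library (adjusted p = 6.47e-05), and Il6ra had 55.7 and 48.9 against 15.5 (adjusted p = 0.0288). Il6 was called under all 7 alternatives tested. The adjusted p of Osmr was 0.0801 with DESeq2 and 0.217 with thinned sums, and that of Il6ra was 0.717 with DESeq2, 0.0782 with library totals, 0.0536 without the filter and 0.243 with thinned sums. Lifr passed the test with 10.7 and 91.4 normalized CPM in the 20-week libraries, against 10.4 in the 2-week library, so that replicate 1 lay beside the 2-week library, and its adjusted p was 0.697 with DESeq2, 0.104 with thinned sums and 0.918 with resolution 1.0. In tenocyte-like cells 1 of 7 rose, Lcn2, a secreted siderophore-binding protein, with 27.2 and 31.9 normalized CPM in the 20-week libraries, against 1.39 in the 2-week library (adjusted p = 0.000134, and 0.532 with thinned sums).

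Of the 9 glucocorticoid-induced genes 1 rose in tenocyte-like cells. Errfi1, an inhibitor of EGF receptor signalling, had 243 and 69.8 normalized CPM there in the 20-week libraries, against 20.9 in the 2-week library (log2 2.91, SE 0.78, adjusted p = 0.00652). Its adjusted p was 0.0716 with DESeq2 and 0.0789 with resolution 1.0. None of the 9 was called in progenitor-like cells by edgeR or DESeq2, with 2 at an unadjusted p under 0.05 in each, and their median log2 ratio was 0.69. All calls in tenocyte-like cells ended when called doublets were kept, where edgeR called 0 genes and 719 were at an unadjusted p under 0.05, with adjusted p-values of 0.0999748 for Mt4, 0.14 for Lcn2 and 0.423 for Errfi1.

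Genes of dissociation and the immediate early response, which cells can switch on during digestion and sorting, had a higher summed level in both 20-week libraries in progenitor-like cells. In progenitor-like cells 16 of 17 had positive ratios, with a median log2 ratio of 1.12 and a summed level of 13491 and 18184 CPM in the 20-week libraries, against 7130.3 CPM in the 2-week library. Zfp36, which speeds the decay of cytokine messengers, and the nuclear receptor Nr4a1 rose (adjusted p = 0.0135 and 0.035). The adjusted p of Zfp36 was 0.0786 with thinned sums and 0.0583 with resolution 1.0, and that of Nr4a1 was 0.0514 with DESeq2 and 0.196 with resolution 1.0. In tenocyte-like cells the same list had a median of -0.14 and summed to 13439 and 8368 CPM in the 20-week libraries, against 9666 CPM in the 2-week library, with none called by either tool and none at an unadjusted p under 0.05. In mural-like cells it summed to 17696 and 5210 CPM in the 20-week libraries, against 15889 CPM in the 2-week library, so that replicate 2 was the lowest here as for Mt1 and Mt2. The macrophage markers summed to 2.75 and 127 CPM in the tenocyte-like cells of the 20-week libraries, against 4.80 CPM in the 2-week library, the tenocyte markers to 526 and 478 CPM in the progenitor-like cells of the 20-week libraries, against 192 CPM in the 2-week library, and the erythroid genes to 1.97 and 29.2 CPM in the progenitor-like cells of the 20-week libraries, against 729 CPM in the 2-week library. The part of these lists in the levels of Mt1 and Mt2 was not tested.

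Genes with a pattern most like each of the 4 were ranked over 29 profiles of a library and class or cluster, by Pearson's r of log2(CPM + 10) among 7927 genes. For Mt1 the closest was Mt2 (r = 0.92), followed by Atf3 (0.83), Cebpd (0.81), Sqstm1 (0.80) and Fosl2 (0.80). For Mt2, after Mt1, they were Medag (0.78), Ddx3x (0.77), Nmt2 (0.77) and Anxa4 (0.76). For Slc30a1 they were Cdk6, Zfp932, Trnt1, Fibp and Ppip5k2, with r between 0.72 and 0.75, and for Slc39a14 Plaur, Skil, Pxdc1, Pi4k2b and Tubb2a, with r between 0.70 and 0.77. Slc30a1 had r = -0.08 with Mt1 and Slc39a14 had r = 0.41. Profiles from 1 library share its depth and handling, so these values are descriptions with no test. Those of Slc30a1 also carry much counting error. It had 5 UMIs in its highest profile, the 2-week Schwann-like cells, and 0 UMIs in the mural-like profiles of both 20-week libraries. Across single cells the genes closest to the summed Mt1 and Mt2 were Nfkbia (mean r over libraries 0.39), Junb (0.38), Cebpd (0.37), Cxcl1 (0.36) and Atf3 (0.35), of which Nfkbia and Cebpd stand on the glucocorticoid list and Junb and Atf3 on the dissociation list. These correlations ran over all cells of a library, with classes mixed. Each of these genes had its highest r in 20-week replicate 2. Junb, for example, had 0.24 and 0.61 in 20-week replicates 1 and 2 and 0.30 in the 2-week library. Slc30a1 and Slc39a14 had mean r of 0.05 and 0.07. Mt1 and Mt2 correlated with each other across cells, with r of 0.60 and 0.68 in the 20-week libraries and 0.39 in the 2-week library at 1000 UMIs per cell. Without thinning, r was 0.65, 0.76 and 0.57 in that order. Thinned cells held means of 4.56 and 3.13 Mt1 UMIs in the 20-week libraries, against 0.846 in the 2-week library. For Mt2 the means were 1.73 and 1.03, against 0.188. With counts this unequal, r cannot be compared between the ages.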

How the data were processed

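The authors deposited raw UMI counts per gene and barcode. Cell Ranger 6.1.2 and the build mm10 are named in the submitters' processing notes. The 4 genes, the gene lists and the marker lists were chosen with earlier results of these data known. Barcodes needed 500 genes, 1000 UMIs and no more than 10% of UMIs from mitochondrial genes, and 3, 8 and 197 doublets were called by a simulated-neighbour score at 0.8% expected per 1000 barcodes and left out, in 20-week replicate 1, replicate 2 and the 2-week library. Clusters came from 2000 variable genes, without any listed gene, z-scored per library, 30 principal components, 15 neighbours and the Leiden method at resolution 0.5 (python-igraph 0.11.9; variable genes from scanpy 1.11.5). A class needed at least 2 markers among a cluster's 10 leading genes and at least 3 detected markers, and haemoglobin genes were not ranked.

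CPM are UMIs per 1e6 UMIs of the summed library and class, with exact 95% Poisson intervals. UMIs were summed per library and class with at least 20 cells and tested with edgeR 4.0.16 (quasi-likelihood, TMM, filterByExpr, Benjamini-Hochberg over all genes, threshold 0.05). The test was also run on simulated counts. Those were drawn with the dispersion of the same fit, so they cannot show that it is calibrated for these libraries. "Normalized CPM" are scaled by TMM. With 2 libraries against 1 there is 1 residual degree of freedom, so the spread comes from the 20-week pair and is taken to hold for the single 2-week library, and in the 3 classes the estimated prior degrees of freedom were infinite, so each gene's own spread gave way to the common trend. A gene whose 20-week libraries differ widely, such as Lifr, can then still be called. The p-values measure only the spread between these libraries, which may be technical. Intervals cover counting error only, and fold bounds and figure marks for a count of 0 are set at 3 UMIs. Alternatives were DESeq2 1.42.0, library totals, no filter, thinned sums, stricter cell filters (1000 genes, 2000 UMIs, 5%), doublets kept, resolution 1.0, equal weight per cell and each 20-week library left out. Listed genes are named if called in any population, and otherwise the 3 of a list with the highest mean CPM. Mt3 was added after its values were seen. The levels without 1 cell and the B-lineage markers of cluster 16 were also added after seeing the data. Of 32285 Ensembl identifiers 32235 were found in GENCODE M21.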

Additional observations from a re-analysis of the deposited data

How the results depend on the processing

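The log2 ratios of Mt1 and Mt2 stayed positive under all 10 alternatives in all cells (2.09 to 2.69 and 2.61 to 3.38), in tenocyte-like cells (3.34 to 4.48 and 4.04 to 5.28) and in progenitor-like cells (1.56 to 2.52 and 2.13 to 2.78, both lows from resolution 1.0). In mural-like cells they were -4.01 and -3.13 without 20-week replicate 1 and 1.36 and 1.82 without replicate 2. Slc39a14 ran from -0.061 to 0.99 in all cells and from -0.19 to 1.07 in tenocyte-like cells as either 20-week library was left out, and from 0.27 to 0.28 in progenitor-like cells, where it was 0.228 with library totals, 0.201 without the filter, 0.865 with thinned sums, 0.203 with doublets kept, 0.123 at resolution 1.0 and 0.304 with equal weight per cell. Slc30a1 in all cells was -1.55 with thinned sums, -0.431 with stricter cell filters and -0.991 with equal weight per cell, and -0.65 to -0.49 with a library left out. In tenocyte-like cells it was 0.541 with equal weight and 0.25 to 0.51 with a library left out, and in progenitor-like cells -0.53 to 0.090. The cause was not tested.

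Genes called over all cells were 11, but 195 with DESeq2, 64 with library totals, 684 without the filter, 0 with thinned sums (849 at an unadjusted p under 0.05), 35 with stricter filters, 20 with doublets kept and 51 without cells of the muscle clusters. The all-cell calls were 1 higher and 10 lower at 20 weeks, and with library totals 15 higher and 49 lower. In tenocyte-like cells there were 367, but 142 with DESeq2, 0 with doublets kept (719 at an unadjusted p under 0.05) and 242 at resolution 1.0. In progenitor-like cells there were 459, but 135 with DESeq2 and 136 with thinned sums. In mural-like cells there were 4, but 18 without the filter and 0 with thinned sums (55 at an unadjusted p under 0.05); the stricter filters left under 20 cells there. Of 12 calls of listed genes, 12 stayed with stricter filters, 11 with library totals, 10 without the filter, 9 with doublets kept, 5 of 11 at resolution 1.0, 4 of 11 with thinned sums and 4 with DESeq2; Il6 stayed in all 7. Calls with a library left out leave 1 against 1 and no test. No paired analysis was possible because the labels give no pairing of libraries across the ages, and the replicate numbers only count libraries within an age.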
